A study of Mus musculus with 6 samples.

Results

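The unfolded protein response and the integrated stress response were followed through 10 of their regulators in 6 RNA-seq libraries of mouse bronchoalveolar lavage cells: Ern1, Eif2ak3, Atf6, Xbp1, Atf4, Ddit3, Trib3, Ppp1r15a, Ppp1r15b and Sesn2. They were chosen by name, as rows of the count table whose Ensembl ID carries one of these symbols in GENCODE M21. All 10 were found among 48795 genes, and all 10 passed a filter of at least 10 counts in at least 3 libraries, which 12627 genes passed. Lavage cells are the cells washed out of the airspaces. The mice were wild-type C57BL/6 animals of 8 to 12 weeks. The study placed 100 ng/kg of cadmium chloride or saline in the trachea of males and females and washed the lungs on day 7. The libraries are titled CD170, CD171, CD174, CD176, CD177 and also CD178, names that do not refer to surface antigens, and no label used here says which of them came from a treated animal or from which sex. The question of cadmium against saline was therefore not analysed. Each library stands alone without replicates, and values are given library by library with no test between groups.

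The endoplasmic reticulum folds secreted and membrane proteins, and unfolded protein in it is sensed by the membrane proteins IRE1alpha (gene Ern1), PERK (Eif2ak3) and ATF6. PERK and the other eIF2alpha kinases slow translation in general while favouring that of ATF4, which drives genes of amino acid supply and, with CHOP (Ddit3), genes of feedback and cell death. Macrophages secrete and engulf large amounts of protein, and IRE1alpha and XBP1 are also known for a part in their inflammatory signalling.

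The results turn on gene-level counts, and for Xbp1 they do not resolve its best-known step. IRE1alpha cuts a short unconventional intron out of Xbp1 mRNA, which shifts the reading frame and yields the active transcription factor. The stretch is shown because the spliced and unspliced forms differ only there. It lies in exon 4 of transcript Xbp1-201 (GENCODE M21), at chr11:5524267-5524322 of GRCm38 on the plus strand. The 26 bases in capitals run from 5524282 to 5524307, and without them the sequence is that of the spliced form. The letters CAG stand both just before the capitals and at their end. Taking out 26 bases from the earlier CAG on leaves the same sequence, so the capitals do not fix the exact cut points. The stretch was picked among pairs of CNGCNGN sites (N is any base) as the one leaving the longest reading frame.
Xbp1: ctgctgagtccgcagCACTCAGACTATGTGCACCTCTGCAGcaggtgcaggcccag
The reading frame runs for 267 codons with the capitals and for 371 codons without them. A count per gene takes in both forms, so Xbp1 levels here say nothing of how much was spliced.

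Promoter windows were searched for motifs by which these factors are known to bind DNA, since several of the 10 genes are themselves targets of ATF4. A window ran from 250 bases before to 50 bases after the gene start (RefSeq, GRCm38.p6), and 8 of the 10 genes had one. Atf6 and Ppp1r15b were not matched. The CARE motif TGATGNAA, bound by ATF4 with C/EBP proteins, occurred on either strand in 3.97% of 32851 windows, and among the matched genes in that of Trib3. The CRE motif TGACGTCA, bound by the CREB and ATF family, occurred in 1.79% of windows and among the matched genes in that of Ppp1r15a. The UPRE motif TGACGTGG (0.676% of windows) and the ERSE motif, CCAAT and CCACG parted by 9 bases (0.119%), had no match in the 8 windows. No motif searched contains another of them. The 2 matched stretches are shown on the strand of the gene with the motif in capitals, and the Trib3 capitals are the reverse complement of a match on the other strand.
Trib3 (chr2:152344028-152344057, minus strand): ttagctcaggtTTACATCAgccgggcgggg
Ppp1r15a (chr7:45526262-45526291, minus strand): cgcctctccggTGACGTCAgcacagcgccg
The Ppp1r15a match starts 12 bases before the gene start, and the Trib3 match 14 bases after it, by the RefSeq starts (45526268 and 152344060). The GENCODE start of Trib3 is 152344032, and by that start the same bases lie 14 to 7 bases upstream. A match of letters is a description of the window and not a measured site. With motifs this rare, the lack of a match in 8 windows says little. Sites outside the window or with other letters were not searched.

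The libraries held 7732244 (CD174) to 23599369 (CD178) gene counts. CD174, and less so CD171, stood apart in measures outside the 10 regulators. Reads in no annotated feature made up 25.0% of all counts in CD174, 16.6% in CD171 and 6.49 to 7.29% elsewhere. A list of 6 rRNA-linked and nuclear RNAs led by CT010467.1, Lars2 and Gm23935 reached 124357 CPM (read counts scaled by edgeR's TMM method to a common library size) in CD174, 43262 CPM in CD171 and at most 11155 CPM elsewhere. Alveolar macrophage markers summed to between 25433 and 32714 CPM, led by Chil3, Ear2 and Mrc1. For the 13 lung epithelium markers, led by Sftpc, Scgb1a1 and Scgb3a2, the sum was 3203 CPM in CD174, against 146.6 to 554.0 CPM in the other libraries. Red cell genes, led by Hbb-bs, Hba-a1 and Hba-a2, summed to between 111.7 CPM (CD177) and 2884 CPM (CD170). Neutrophil markers summed to between 43.5 and 59.2 CPM, mostly Csf3r, followed by S100a8 and Cxcr2, with Ly6g and Elane at 0 counts everywhere. T and NK cell markers, led by Cd3d, Cd3g and Trac, summed to at most 8.79 CPM, with Klrb1c at 0. The eosinophil list summed to 428.4 to 546.1 CPM, nearly all of it Siglecf, which alveolar macrophages share, with Prg2 and Ccr3 at no more than 45 counts. A count of 0 allows up to 3 counts, or 0.447 CPM in CD174 and 0.123 CPM in CD178. Intervals are exact 95% Poisson intervals and cover counting error only. In such bulk samples, fewer cells of a type and less RNA per cell cannot be told apart.

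Among the sensors, Ern1 spanned a wider fold between libraries than Atf6 with or without CD174, and Eif2ak3 did so only with CD174 included. Ern1 encodes the kinase and endoribonuclease IRE1alpha (chromosome 11, 106394650 to 106487852, minus strand, GRCm38, as for the coordinates that follow). It stood at 54.2 CPM in CD170, 46.4 in CD171, 44.0 in CD177, 42.9 in CD176, 29.6 in CD178 and 24.7 in CD174. CD170 was above the other libraries, CD171, CD176 and CD177 had overlapping intervals, and CD178 and CD174 lay below them. The highest level was 2.19 times the lowest, and 1.83 times without CD174.

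Eif2ak3 encodes PERK, the eIF2alpha kinase of the endoplasmic reticulum (chromosome 6, 70844515 to 70905245, plus strand). Its level was 46.7 CPM in CD171, 44.7 in CD176, 38.3 in CD178, 37.8 in CD170, 36.2 in CD177 and 19.2 in CD174. One library was low: the interval of CD174, 16.0 to 22.8 CPM, lay below all others, which spanned only 1.29-fold among themselves. A gene of uncertain status on the other strand, Gm43292, overlaps 485 bases of its exons and had at most 8 counts in a library.

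Atf6, the sensor that is cut in the Golgi to free a transcription factor (chromosome 1, 170704674 to 170867771, minus strand), stood at 54.6 CPM in CD170, 52.3 in CD177, 50.2 in CD178, 43.1 in CD171, 40.8 in CD176 and 33.1 in CD174. CD170, CD177 and CD178 formed an upper set with overlapping intervals, and CD171 and CD176 a lower one. CD174 was lowest, and its upper bound of 37.7 CPM just reached the lower bound of CD176, 37.6 CPM. The ratio of highest to lowest was 1.65, and without CD174 it was 1.34, beside 1.29 for Eif2ak3.

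**Figure D1:**
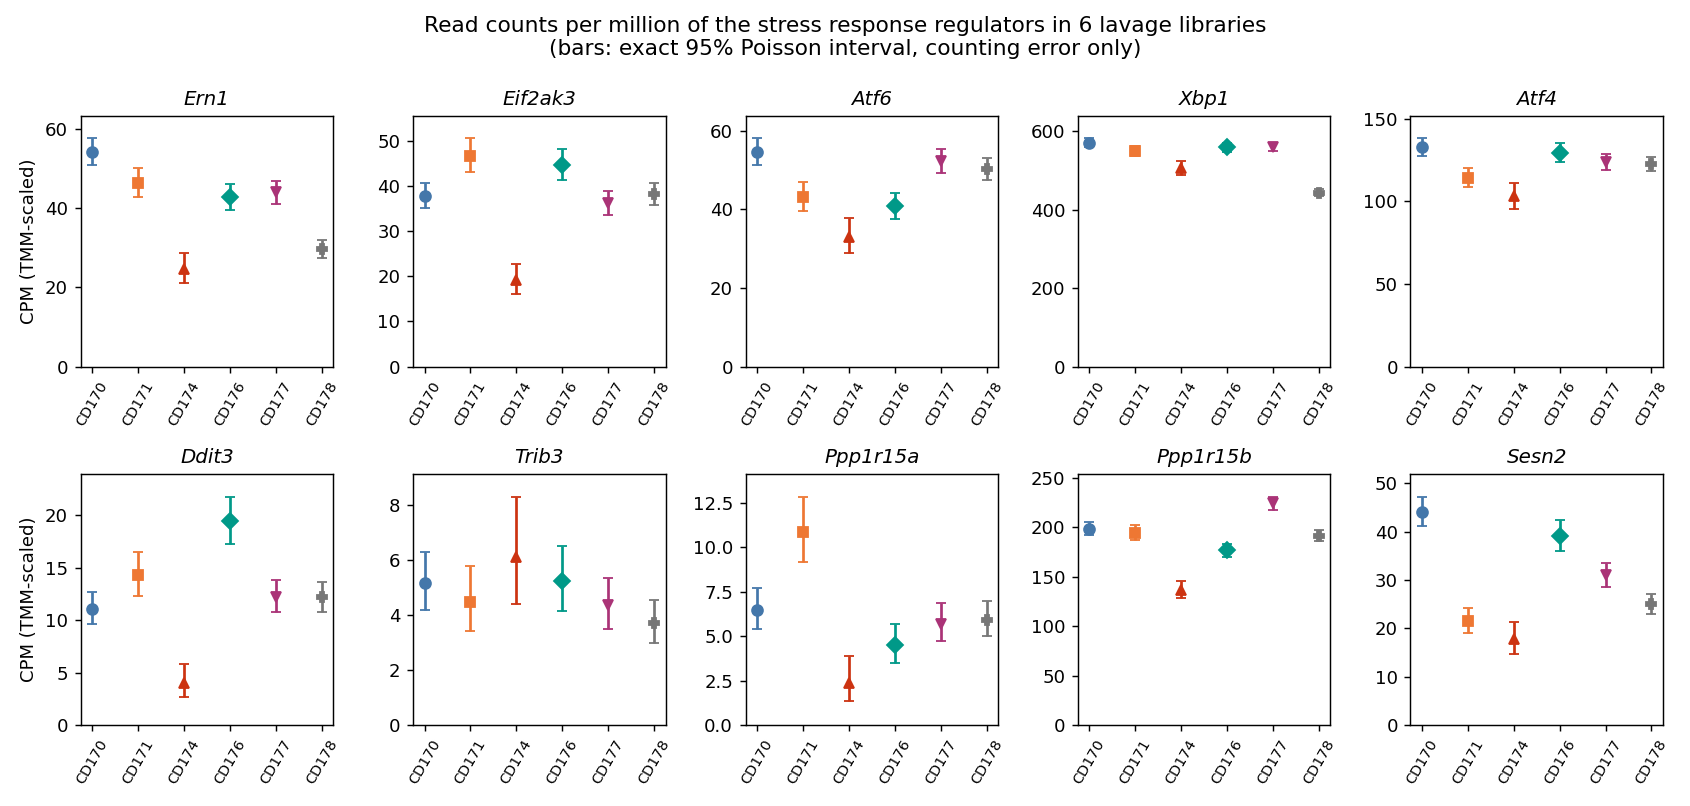
TMM-scaled CPM (vertical axes, each starting at 0) of the 10 regulators in each of the 6 lavage libraries (horizontal axes), with exact 95% Poisson intervals for counting error only. Ddit3 runs from 4.02 CPM in CD174 to 19.4 CPM in CD176, while the Trib3 intervals overlap throughout and Xbp1 is lowest in CD178.

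Of the transcription factors, Xbp1 and Atf4 were nearly level across libraries, and Ddit3 was variable. Xbp1 (chromosome 11, 5520659 to 5525893, plus strand) had 571.1 CPM in CD170, 560.3 in CD177, 559.0 in CD176, 550.9 in CD171, 506.9 in CD174 and 443.5 in CD178. The first 4 places (CD170, CD177, CD176, CD171) had overlapping intervals in sequence, CD174 followed, and CD178 was below all with 435.2 to 452.0 CPM. Scaled by total gene counts instead, the last 2 places turned, with 440.2 CPM in CD174 and 457.9 CPM in CD178. XBP1 is also the factor of plasma cells, and B and plasma cell markers together ran from 2.23 CPM (CD170) to 27.5 CPM (CD174), the latter mostly Sdc1, with Ighm and Igha at no more than 32 counts and Jchain and Mzb1 at no more than 6 counts in any library.

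Atf4 (chromosome 15, 80255184 to 80257541, plus strand) encodes the factor whose translation rises when eIF2alpha is phosphorylated, so that mRNA and protein need not move together. CPM values were 132.8 in CD170, 129.3 in CD176, 123.6 in CD177, 122.5 in CD178, 114.2 in CD171 and 103.2 in CD174. Neighbours in this order had overlapping intervals in all 5 pairs, but the ends did not: CD170 lay between 127.6 and 138.1 CPM and CD174 between 95.6 and 111.2 CPM. The highest level was 1.29 times the lowest, the same fold as for Xbp1.

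Ddit3 encodes CHOP, the factor linked to cell death after lasting stress (chromosome 10, 127290774 to 127296288, plus strand). It had 19.4 CPM in CD176, 14.3 in CD171, 12.2 in CD177, 12.2 in CD178, 11.04 in CD170 and 4.02 in CD174. CD176 (17.3 to 21.7 CPM) was above every other library and CD174 (2.65 to 5.85 CPM, from 27 counts) below every other, while the remaining 4 had overlapping intervals in sequence. The highest level was 4.83 times the lowest, the widest spread of the 10 genes, and 1.76 times without CD174. CD176 also had the highest sums of the immediate early list (3167 CPM, against 1919 to 2640 CPM) and of the cytosolic heat shock list (6007 CPM, against 3953 to 5816 CPM), and their part in its Ddit3 level was not tested. The exons of Ddit3 overlap Mars on the other strand by 68 bases, Gm4189 by 13 bases, and on the same strand a second M21 gene of the same name by 105 bases, which was not analysed here. Mars had 221 to 1386 counts, and with no strand setting given, reads of such overlaps cannot be told apart.

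Of the feedback genes, Ppp1r15b, the constitutive partner of the phosphatase that restores eIF2alpha (chromosome 1, 133131143 to 133139783, plus strand), had 224.1 CPM in CD177, 198.4 in CD170, 194.6 in CD171, 191.5 in CD178, 176.5 in CD176 and 136.7 in CD174. CD177 was above and CD174 below all other intervals, a ratio of 1.64. Gm26616 overlaps 640 bases of its exons on the other strand and had at most 39 counts.

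Ppp1r15a encodes GADD34, the stress-induced partner of the same phosphatase (chromosome 7, 45522916 to 45526268, minus strand). Its level was 10.9 CPM in CD171, 6.47 in CD170, 5.91 in CD178, 5.71 in CD177, 4.51 in CD176 and 2.38 in CD174. CD171 stood alone at the top (9.16 to 12.8 CPM), and CD174, with 16 counts and 1.36 to 3.87 CPM, reached up to CD176 and no further. The ratio of highest to lowest was 4.57, and 2.41 without CD174.

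Trib3, a pseudokinase induced by CHOP and ATF4 that restrains both (chromosome 2, 152337422 to 152344032, minus strand), had few counts in each library. Its level was 6.11 CPM in CD174, 5.23 in CD176, 5.15 in CD170, 4.48 in CD171, 4.34 in CD177 and 3.69 in CD178. These rest on 41 to 97 counts, and the intervals of all 6 libraries overlapped, from CD174 (4.38 to 8.28 CPM) to CD178 (2.97 to 4.54 CPM). No pair was tested. Scaled by total gene counts, CD176 (5.43 CPM) rather than CD174 (5.30 CPM) was highest.

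Sesn2 (chromosome 4, 132492032 to 132510501, minus strand) encodes a leucine-binding inhibitor of mTORC1 signalling induced by ATF4 and by p53. Its libraries came in the same order as those of Atf4. Sesn2 stood at 44.1 CPM in CD170, 39.1 in CD176, 30.9 in CD177, 25.0 in CD178, 21.5 in CD171 and 17.7 in CD174. CD170 and CD176 overlapped at the top, CD177 lay below them, and CD178, CD171 and CD174 overlapped in sequence at the bottom. It varied 2.49-fold, and 2.05-fold without CD174.

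For a comparison between genes, levels were taken per length. Divided by the length of the merged exons, the median over libraries was 170.9 CPM per kb for Xbp1, 52.2 for Atf4 and 34.5 for Ppp1r15b. The next 5 were Sesn2 at 8.04, Ddit3 at 7.11, Eif2ak3 at 6.31, Ern1 at 5.31 and Atf6 at 5.06 CPM per kb. Trib3 at 2.26 and Ppp1r15a at 1.98 CPM per kb were lowest. With the longest coding transcript as the length, the first 3 and the last 2 places were the same, but the 5 in the middle changed order and spread over 6.25 (Ern1) to 13.7 CPM per kb (Ddit3), and Xbp1 came to 260.7 CPM per kb.

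The spread between libraries was next compared with that of all genes. A log2 CPM range of at least 1, a 2-fold difference between the highest and the lowest library, was found for 5 of the 10 regulators: Ern1 (1.13), Eif2ak3 (1.28), Ddit3 (2.24), Ppp1r15a (2.14) and Sesn2 (1.31). Among all 12627 filtered genes the share was 50.5%, so the regulators' share was that of the background. Median ranges were 0.93 for the regulators and 1.01 for all filtered genes. Without CD174, 31.0% of genes and 2 of the 10 (Ppp1r15a and Sesn2) had such a range. Without CD171 and CD174, the share was 16.9% of genes and none of the 10, whose widest range was then 0.87 (Ern1). Ranges were wider at low counts: with the genes put in 4 equal bins by median CPM, 96.8% of the lowest bin reached a range of 1, and 14.3% of the highest. Trib3 had a range of 0.71. Its median of 4.81 CPM lies at the upper edge of the lowest bin, which ends at 4.83 CPM. In the next bin the share was 63.0%. Xbp1 (0.36), Atf4 (0.36) and Ppp1r15b (0.71), in the highest bin, all stayed under 1. For Xbp1 93.4% and for Atf4 93.5% of all filtered genes had a larger range, against 22.3% for Ddit3 and 23.4% for Ppp1r15a.

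For 8 of the 10 regulators, all but Xbp1 and Trib3, the lowest level was in CD174, as it was for 37.2% of all filtered genes. Relative to the median of the other 5 libraries, log2 CPM in CD174 differed by -1.57 for Ddit3, -1.27 for Ppp1r15a, -0.99 for Eif2ak3, -0.83 for Ern1 and -0.80 for Sesn2. The difference was smaller for Atf6 (-0.60), Ppp1r15b (-0.51), Atf4 (-0.26) and Xbp1 (-0.14), and it was 0.44 for Trib3. The median over the 10 was -0.70, and over all filtered genes -0.10, of which 54.9% were below 0. CD174 had the fewest counts, the most reads outside annotated features and the highest epithelial and rRNA-linked sums given above, and the part of these in its low values was not tested. Over all filtered genes, the CD174 difference moved with exon length: over 4 equal bins its median went from 0.24 in the shortest to -0.27 in the longest. Ern1 (-0.83) and Atf6 (-0.60) are in the longest bin, and both lay below its median of -0.27. Atf4, Ddit3 and Trib3 are in the shortest. There Ddit3 (-1.57) and Atf4 (-0.26) lay below the median of 0.24, and Trib3 (0.44) above it. The highest library was CD170 for Ern1, Atf6, Xbp1, Atf4 and Sesn2, CD171 for Eif2ak3 and Ppp1r15a, CD176 for Ddit3, CD177 for Ppp1r15b and CD174 for Trib3 (CD176 with total counts).

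**Figure D2:**
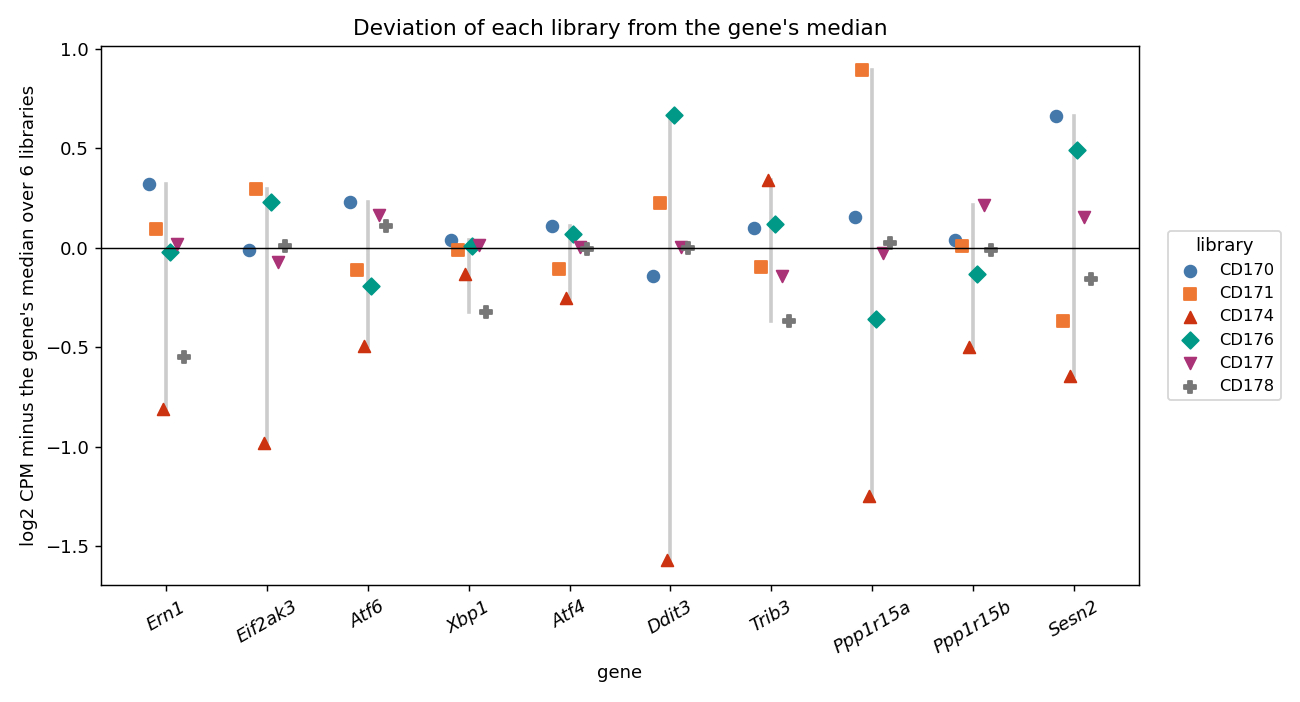
Deviation of log2 CPM in each library from the gene's median over the 6 libraries (vertical axis) for each regulator (horizontal axis); grey bars span the range. CD174 lies lowest for 8 genes and highest for Trib3, and CD178 lies lowest for Xbp1 and Trib3.

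Ratios of 2 genes inside a library need no scaling of library size. Ddit3 counts per Atf4 count, a factor over one of its activators, were 0.150 in CD176, 0.125 in CD171, 0.0992 in CD178, 0.0987 in CD177, 0.0831 in CD170 and 0.0390 in CD174. The ratio was highest in CD176 and CD171, whose intervals overlap, and lowest in CD174 (0.0255 to 0.0572), a 3.85-fold span beside the 1.29-fold span of Atf4 itself.

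Trib3 counts per Atf4 count went the other way in CD174. They were 0.0592 in CD174, 0.0404 in CD176, 0.0392 in CD171, 0.0388 in CD170, 0.0352 in CD177 and 0.0302 in CD178. CD174 (0.0421 to 0.0811) lay above CD178 (0.0242 to 0.0372) and overlapped CD176, CD171, CD170 and CD177.

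The inducible over the constitutive phosphatase partner, Ppp1r15a per Ppp1r15b, gave 0.0559 in CD171, 0.0326 in CD170, 0.0309 in CD178, 0.0255 in CD176, 0.0255 in CD177 and 0.0174 in CD174. CD171 (0.0469 to 0.0663) stood above every other library, and the other 5 overlapped in sequence. The fold between highest and lowest was 3.21.

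Among the sensor arms, Eif2ak3 per Ern1 was 1.29 in CD178, 1.04 in CD176, 1.01 in CD171, 0.823 in CD177, 0.777 in CD174 and 0.697 in CD170. CD178 (1.17 to 1.42) was above all, with CD176 reaching 1.16. Xbp1 per Atf6 ran from 8.83 in CD178 to 15.3 in CD174, with 13.7 in CD176, 12.8 in CD171, 10.7 in CD177 and 10.5 in CD170. CD174 and CD178, the libraries with the 2 lowest Ern1 levels, held opposite ends of Xbp1 per Atf6, CD174 the highest and CD178 the lowest. The interval of CD174 (13.4 to 17.6) overlapped those of CD176 and CD171. Merged exons are 3248 bases long for Xbp1 and 9231 for Atf6. The part of exon length in the CD174 ratio was not tested.

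**Figure D3:**
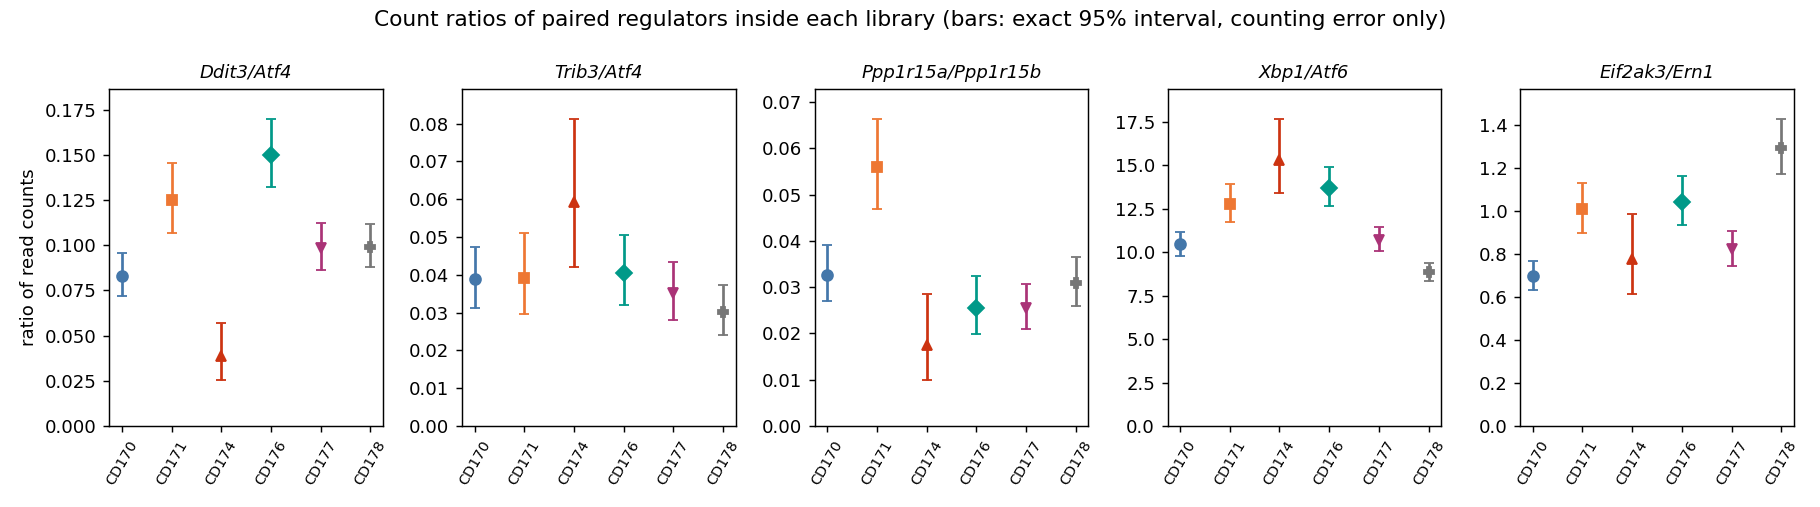
Ratio of read counts of paired regulators (vertical axes, starting at 0) inside each library (horizontal axes), with exact 95% intervals for counting error only. CD176 is highest for Ddit3 per Atf4, CD171 for Ppp1r15a per Ppp1r15b, CD178 for Eif2ak3 per Ern1, and CD174 for Trib3 per Atf4 and Xbp1 per Atf6.

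The wider pathway was read from 8 lists holding 121 symbols, 119 of them in the table and 108 past the filter. A range of at least 1 was found for 36 of the 108, or 33.3%, with a median range of 0.76, beside 50.5% and 1.01 for all filtered genes. Without CD174 the count was 13, beside 31.0% of all genes. Without CD171 and CD174 it was 6, beside 16.9% of all genes. Over all 6 libraries, the shares of 33.3% and 50.5% are not matched for level. In the highest of 4 bins of median CPM, 14.3% of all genes had such a range. There it was found for 1 of 13 chaperones, 1 of 12 degradation genes and 2 of 14 translocation genes. For other lists it was 2 of 3 eIF2 genes, 1 of 8 sensor partners and 1 of 4 amino acid genes. The bin also held 5 effectors, 2 with such a range, and 1 paralog, which had it. By list, in the order described here, the counts without CD174 were 0 chaperones, 1 degradation gene, 2 translocation genes, 1 eIF2 gene, 1 sensor partner, 3 amino acid genes, 4 effectors and 1 paralog. Other libraries also moved single lists by over 1.5 times: translocation to 2 without CD171, degradation to 0 without CD176 and to 1 without CD177 or without CD178, and the paralogs to 2 without CD178. The share of all genes was then 42.5% without CD171, 47.4% without CD176, 47.2% without CD177 and 46.4% without CD178.

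Chaperones and folding enzymes, classic targets of ATF6 and XBP1, had a median range of 0.42, the smallest of the 8 lists, and 2 of 15 reached 1. They are abundant: 13 of the 15 are in the highest of the 4 bins of median CPM, where 1 of the 13 reached 1, beside 14.3% of all genes in that bin. Calr, the lectin chaperone calreticulin, lay between 1305 CPM (CD171) and 1720.0 CPM (CD174). Hspa5, the chaperone BiP that holds the sensors inactive, lay between 975.0 CPM (CD178) and 1532 CPM (CD176), and Pdia3, a disulfide isomerase, between 962.0 and 1231 CPM. The 2 wider ones were Creld2, an ATF6 target (46.9 CPM in CD178 to 125.8 CPM in CD174), and Ppib, a prolyl isomerase (26.8 CPM in CD174 to 70.5 CPM in CD178). The list's summed level ran from 7051 CPM in CD178 to 8294 CPM in CD170 and 8744 CPM in CD174. With TMM scaling, CD174 was thus highest for the chaperone sum and lowest for Ern1, Eif2ak3 and Atf6. Its lead in the sum does not hold with total gene counts. These move the median gene by -0.20 in CD174 and by 0.02 in CD170 on the log2 scale.

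The list for degradation of misfolded protein had a median range of 0.56, and 2 of 16 reached 1. Edem1, a mannosidase-like lectin, lay between 221.8 and 296.4 CPM, Vcp, the extracting ATPase, between 201.5 and 349.5 CPM, and Os9, a lectin, between 203.9 and 289.4 CPM. Herpud1, a scaffold of the degradation complex, lay between 63.6 CPM (CD174) and 133.8 CPM (CD176), the same lowest and highest libraries as Ddit3. Derl3, at no more than 38 counts, was the other. Translocation and vesicle coat genes had a median range of 0.75, and 4 of 17 reached 1. Serp1, a translocon protein, lay between 480.1 and 627.7 CPM, Ssr3 between 236.1 and 286.6 CPM and Spcs2, of the signal peptidase, between 213.3 and 276.8 CPM. Sec24d, a cargo coat subunit (9.53 to 26.3 CPM), and Ssr2, a translocon-associated subunit (59.2 to 148.0 CPM), varied most.

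Of the eIF2 kinases and eIF2 machinery, 4 of 11 reached a range of 1, beside 50.5% of all filtered genes. Eif2ak1, the heme-regulated kinase, was lowest in CD174, like Eif2ak3, with 33.5 CPM against 59.4 to 75.8 CPM. Eif2ak2, the RNA-activated kinase PKR, and Eif2ak4, the amino acid sensor GCN2, ranged over only 26.8 to 39.0 and 27.0 to 37.2 CPM. Eif2s1, the phosphorylated subunit itself, lay between 63.7 CPM (CD174) and 132.1 CPM (CD178), and Eif2b1, of the exchange factor, between 9.65 CPM (CD171) and 28.8 CPM (CD177). Eif2s2, the beta subunit, lay between 85.3 and 120.9 CPM.

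Of the sensor partners and paralogs, 4 of 13 reached a range of 1, beside 50.5% of all filtered genes. Atf6b, the paralog of Atf6, lay between 73.3 and 118.9 CPM, and Ern2, the IRE1 of mucosal epithelium, had at most 11 counts in a library and 0 counts in CD170, CD174 and CD177. The phosphatase subunits Ppp1ca (398.5 to 462.8 CPM) and Ppp1cb (199.1 to 269.7 CPM), which Ppp1r15a and Ppp1r15b direct to eIF2alpha, varied little, as did Dnajc3, the PERK inhibitor (162.8 to 228.7 CPM). Wfs1, a calcium-related membrane protein (1.04 CPM in CD174 to 8.28 CPM in CD170), and Dele1, which relays mitochondrial stress to the eIF2 kinase Eif2ak1 (4.91 CPM in CD174 to 18.2 CPM in CD170), varied most.

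Amino acid and one-carbon genes driven by ATF4 had a median range of 0.98, and 7 of 16 reached 1, near the 1.01 and 50.5% of all filtered genes. Phgdh, the first enzyme of serine synthesis, was higher in CD171 (357.3 CPM) and CD174 (330.6 CPM) than elsewhere (191.6 to 210.3 CPM). Slc7a11, the cystine transporter, was highest in CD174 at 39.6 CPM against 10.7 to 23.2 CPM, and Slc7a5, the large neutral amino acid transporter, lowest there at 29.9 CPM against 46.4 to 94.7 CPM. The other abundant genes, Slc3a2, the heavy chain of both transporters (167.6 to 212.5 CPM), and Slc38a2 (116.0 to 164.0 CPM), varied little, like Atf4 itself. The highest library was thus CD171 for Phgdh, CD174 for Slc7a11 and CD170 for Slc7a5.

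Of the ATF4 and CHOP effectors, 9 of 16 reached a range of 1, with a median of 1.05, near the 50.5% and 1.01 of all filtered genes. Cebpb, a C/EBP partner of ATF4, lay between 625.0 CPM (CD177) and 1447 CPM (CD174), Txnip, an inhibitor of thioredoxin, between 857.7 and 1369 CPM, and Cebpg between 158.5 and 233.1 CPM. Ddit4 and Gadd45a varied most and had at most 56 and 91 counts. Both are in the lowest bin of median CPM, where 96.8% of all genes reached 1. Several ATF4 or CHOP targets known from other tissues were near 0: Fgf21 had 0 counts in each library, Stc2 at most 6 and Chac1 at most 28.

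The tribbles and sestrin paralogs, 4 of 4, had ranges over 1, beside 50.5% of all filtered genes, and each was wider than that of Trib3 or Sesn2. They differ in level. Trib2 and Sesn3 are in the lowest bin of median CPM, where 96.8% of all genes had such a range. Sesn1 is in the second bin (63.0%), and Trib1 in the highest (14.3%). Trib1, a scaffold for C/EBP degradation, lay between 26.4 CPM (CD178) and 90.1 CPM (CD176). Trib2 had at most 26 counts. Sesn1 lay between 2.53 CPM (CD174) and 7.32 CPM (CD176), and Sesn3 between 2.08 CPM (CD171) and 11.2 CPM (CD174), the opposite end for CD174 from Sesn1 and Sesn2.

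**Figure D4:**
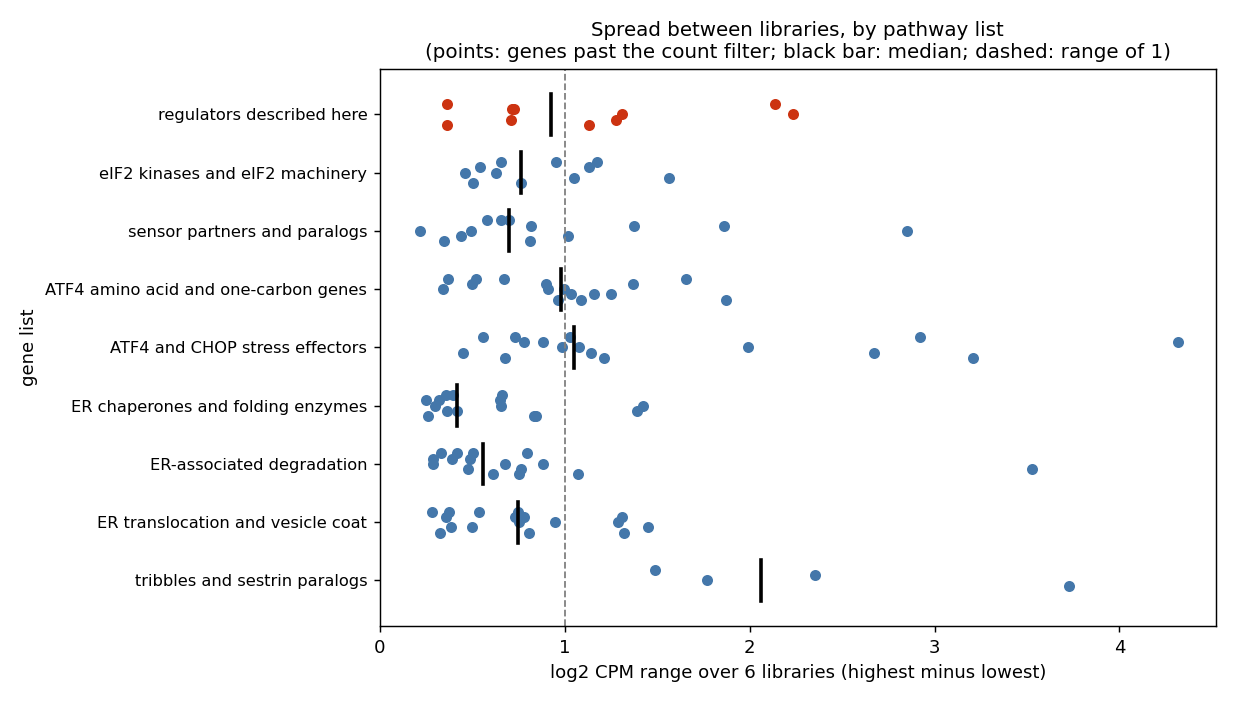
Log2 CPM range over the 6 libraries (horizontal axis) of each gene past the count filter, by list (vertical axis); black bars are medians and the dashed line marks a range of 1. The chaperone list has the smallest median, 0.42, and the tribbles and sestrin paralogs the largest, 2.06, with 0.93 for the 10 regulators.

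For each of the 5 regulators with a range of at least 1, the filtered genes with the most similar profile were listed, by the root mean square difference of centred log2 CPM over the 6 libraries. The nearest to Eif2ak3 were Trak2 (0.068), Rnmt (0.081) and Stx16 (0.085), and to Ern1 Tle3 (0.077), Ska2 (0.10) and Ces2c (0.12). Nearest to Ddit3 were Pisd-ps1 (0.11), Klhl15 (0.15) and Sirt1 (0.16), to Ppp1r15a C130012C08Rik (0.12), Gfod1 (0.13) and Focad (0.13), and to Sesn2 Rgl3 (0.10), Cd300a (0.12) and Bhlhe40 (0.13). The median difference over all filtered genes was 0.52 for Ern1 and 0.77 for Ddit3. None of these 15 genes is in the stress response lists. That they too were lowest in CD174 follows from how they were chosen.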

How the data were processed

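RNA of lavage cells was sequenced in 6 libraries. The authors deposited unnormalized whole-number counts of reads for each gene. The submitters' processing notes list HTSeq 0.11.2, STAR 2.7.1a, Trim Galore 0.6.2 and bcl2fastq 2.18.0.12 with GRCm38. Neither annotation release nor strand setting is given in the sources used here. IDs were matched to GENCODE M21 without their version (48349 of 48795, and 10 of 10 regulators). The 5 summary rows, 18.8 to 46.0% of all counts, were kept out of library sizes, and 0 value columns were left unused. TMM library sizes (edgeR 4.0.16, R 4.3.3) gave CPM and, after adding a prior count of 2, log2 CPM. Python 3.11.15 with matplotlib 3.10.9, scipy 1.17.1, pandas 2.3.3 and numpy 2.4.6 did the rest. No group labels meant no test. The range calculation was run on simulated counts with counting error only and a shift planted in a single library. That run checks the calculation and says nothing of variation between animals or of differences in content. Promoter sequences are from RefSeq (GRCm38.p6). The regulators and gene lists were chosen with earlier results of these data known. Besides the regulators, the text names from each list the 3 genes highest by median CPM, from each list other than cell markers the 2 with the largest range, and the 3 genes nearest in profile to each regulator with a range of at least 1; other genes were named after their values were seen. Alternatives were total counts, DESeq2 1.42.0 size factors, TMM without 4 rRNA-linked genes, a prior of 0.5, no filter, a range of 0.5, another gene length and leaving out libraries.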

Additional observations from a re-analysis of the deposited data

Results flagged for a closer look

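Trib3 counts per Atf4 count in CD174, 0.0592, lay far from the nearest other library, 0.0404 in CD176, relative to the whole spread of the 6 libraries (0.0302 to 0.0592). The gap was 0.65 of the range. The ratio rests on 41 Trib3 counts and 693 Atf4 counts. It was the 1 value to pass of 23 examined (10 levels, 5 ratios and 8 list sums), and chance passes about 1 in 20 groups.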

How the results depend on the processing

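No paired analysis was possible because the labels place none of these libraries in a group. The count of regulators with a log2 range of at least 1, 5 of 10, was 5 with DESeq2 size factors, total counts, TMM without 4 rRNA-linked genes, a prior of 0.5 and no filter. The share of all genes was 50.4 to 53% with these scalings and that prior, and 62.6% with no filter. The count of regulators was 8 at a range of 0.5, with 84.1% of all genes past that range. Leaving out one library gave 2 to 5 regulators, beside 31.0 to 47.4% of all genes. It was 2 without CD174 (31.0% of all genes), and 4 without CD170 (47.0%), when Ern1 fell under 1. For the 36 pathway genes the counts were 34 to 46 over the same settings, 78 at a range of 0.5, and 13 (without CD174) to 34 leaving out one library. Leaving out CD171 and CD174 gave 0 regulators and 6 pathway genes, beside 16.9% of all genes. The cause was not tested. CD174 was lowest for 8 regulators with DESeq2 size factors, with TMM without the 4 genes and without CD170, CD171, CD176 or CD177, and for 9 with total counts and without CD178. Total counts moved the median gene of CD174 by -0.20 on the log2 scale. The RefSeq coding length was not run. Depth limits Trib3 and Ppp1r15a, and Ddit3 in CD174.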

Other observations

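Of 18 immediate early genes past the count filter, 14 had a log2 range of at least 1 over the 6 libraries, beside 50.5% of all filtered genes. In the highest bin of median CPM it was 9 of 12, beside 14.3% of all genes in that bin. The 3 highest by median CPM were Klf6 (246.6 to 462.7 CPM), Ier5 (229.9 to 362.1 CPM) and Btg2, an antiproliferative factor, which lay between 134.7 CPM in CD177 and 541.5 CPM in CD176. Fosb was at 29.9 CPM in CD176 and at 16.0 CPM or less elsewhere, and Ier3 ranged most, from 0 counts in CD171 to 8.93 CPM in CD174. Of 12 cytosolic heat shock genes, 6 had such a range, near the 50.5% of all filtered genes. In the highest bin it was 2 of 7, beside 14.3%. The inducible chaperones Hspa1a and Hspa1b were at 37.5 and 74.7 CPM in CD176, 15.5 and 34.7 CPM in CD174, and at most 3.45 and 13.1 CPM in the other libraries, while the constitutive Hspa8 lay between 1661 and 3034 CPM, Hsp90ab1 between 1523 and 2432 CPM and Hsp90aa1 between 219.0 and 492.1 CPM.

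Of 4 metal response genes past the filter, 3 had a range of at least 1, beside 50.5% of all filtered genes. Mt1 and Hmox1 are in the highest bin of median CPM, where 14.3% of all genes had such a range. Mt2 is in the lowest bin, where 96.8% had it. Mt1, a metallothionein, was at 1266 CPM in CD174 and 323.2 to 457.2 CPM elsewhere, and Hmox1, heme oxygenase, at 569.9 CPM in CD174 and 156.3 to 268.7 CPM elsewhere. Mt2 had at most 99 counts, and the zinc exporter gene Slc30a1 ran from 10.2 to 16.9 CPM. CD174 also had the highest epithelial sum (3203 CPM, against at most 554.0 CPM) and the highest rRNA-linked sum, and in it the filtered genes of the shortest exon length bin had a median log2 difference of 0.24 from the other libraries. The part of these in the Mt1 and Hmox1 levels was not tested. No library has an exposure label here, and none was inferred from these values.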
